A study of Mus musculus with 3 samples.

Results

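The forkhead genes Foxq1, Foxf2 and Foxc1 lie together on mouse chromosome 13, and their relatives Foxf1, Foxc2 and Foxl1 lie together on chromosome 8. Cbx2 peaks were taken as belonging to these clusters when they overlapped, by at least 1 base, mm9 chromosome 13 from 31.63 to 31.93 Mb or mm9 chromosome 8 from 123.58 to 123.68 Mb. Of the 2217 peaks in the table, 1 met this rule. It lay in the chromosome 8 window, and 0 peaks lay in the chromosome 13 window. A name that speaks of Cbx2 over both clusters is therefore not borne out by the peak list: the data below are those of 1 short peak in the Foxf1, Foxc2 and Foxl1 window, and of a window around Foxq1, Foxf2 and Foxc1 in which the table lists nothing.

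Forkhead proteins are transcription factors that bind DNA through a winged-helix domain. Foxf1 and Foxf2 act in the mesenchyme of the lung and gut, Foxc1 and Foxc2 in paraxial mesoderm, the eye and blood and lymphatic vessels, Foxl1 in the mesenchyme beneath the gut epithelium, and Foxq1 in the hair shaft and the stomach lining of the mouse. Foxf1 and Foxf2, and likewise Foxc1 and Foxc2, are paralogous pairs with 1 gene of each pair in either cluster. Genes of this kind are often held silent outside their own tissue by Polycomb repressive complexes. Cbx2 belongs to Polycomb repressive complex 1, to which it brings a chromodomain that reads trimethylated lysine 27 of histone H3, and in mammals these complexes gather at promoters rich in CpG dinucleotides.

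Cbx2 was mapped by chromatin immunoprecipitation and sequencing (ChIP-seq) in C3H10T1/2 cells, a mesenchymal progenitor line from mouse embryos, at passages 10 to 15. Both groups carried a stably expressed H3.3 histone: FLAG-HA-tagged wild-type H3.3 in the WT library, and H3.3 with lysine 36 changed to methionine in the K36M library, a substitution found in chondroblastoma that inhibits methylation of lysine 36 on histone H3. The K36M library is known by its title and the series' design, since its genotype label reads the same as that of WT. With 1 ChIP library per group, of 29278813 reads (WT) and 36243012 reads (K36M), replicate spread is unknown for every difference below, and no p-value is given. An input library from the WT cells was not analysed here. Nothing in the sources used here says whether the cells of a group came from 1 clone.

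The order of genes in the clusters was read from RefSeq on GRCm38.p6, by name only, since the peak table uses mm9. On chromosome 13 the order is Foxq1, Foxf2, Foxc1. The 4 other annotated genes between Foxq1 and Foxc1 are all non-coding, and Gmds, which encodes an enzyme of GDP-fucose synthesis, follows Foxc1. On chromosome 8 the order is Foxf1, Mthfsd, Foxc2, Foxl1. Fendrr, a long non-coding RNA gene known in mouse for its part in lateral mesoderm development, is the neighbour before Foxf1. The peak could not be tied to one of these genes, because no mm9 annotation was used here.

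Of the 6 forkhead genes, 2 have an entry in the RefSeq promoter table, Foxf2 and Foxc1, both in the chromosome 13 cluster. Their promoters are shown because they are the sequences at hand from the window without a listed peak. Each line below holds the 250 bases before the annotated start, 5′ to 3′ on the plus strand of GRCm38.p6, with every CpG in capitals. These positions are not on the scale of the mm9 peak coordinates.
Foxf2, chr13:31625566-31625815: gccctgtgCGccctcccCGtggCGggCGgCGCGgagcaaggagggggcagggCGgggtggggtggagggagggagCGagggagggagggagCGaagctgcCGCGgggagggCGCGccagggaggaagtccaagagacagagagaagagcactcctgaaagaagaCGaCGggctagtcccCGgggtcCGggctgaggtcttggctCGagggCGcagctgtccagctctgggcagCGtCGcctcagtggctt
Foxc1, chr13:31806396-31806645: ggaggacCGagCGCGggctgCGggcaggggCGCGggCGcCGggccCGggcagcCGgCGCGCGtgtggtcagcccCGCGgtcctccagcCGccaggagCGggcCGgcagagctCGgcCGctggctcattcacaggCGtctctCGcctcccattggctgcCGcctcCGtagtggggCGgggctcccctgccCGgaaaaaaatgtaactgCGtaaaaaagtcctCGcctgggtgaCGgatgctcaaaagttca
CG, which reads the same on both strands, occurs 21 times in the Foxf2 sequence and 29 times in the Foxc1 sequence. The median over the same 250 bases of all 32851 promoters in the table is 6, and 92.1% of them hold at least 1 CG. At least as many as in Foxf2 were found in 16.3% of promoters, and at least as many as in Foxc1 in 6.78%. The GC content was 71.6% for Foxf2 and 70.8% for Foxc1, against a median of 52.4%. Both promoters are thus CpG-rich by comparison with the table, and no Cbx2 peak is listed in the window that the rule draws around them. Promoters with at least as many CG number 5370 for Foxf2 and 2227 for Foxc1, whereas 2217 Cbx2 peaks are listed in all. How often promoters this rich in CpG lack a listed peak was not tested. No promoter of the chromosome 8 cluster was at hand for contrast.

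The Cbx2 peak of the chromosome 8 cluster spanned 800 bp, from 123599200 to 123599999 (mm9, chromosome 8). It held 58 reads in the WT library, or 1.98 reads per 1000000 library reads (RPM). In the K36M library it held 24 reads, or 0.662 RPM. The signal was lower in K36M, with a K36M/WT ratio of 0.334 and a 95% exact (Clopper-Pearson) interval of 0.199 to 0.547. The ratio corresponds to a 2.99-fold lower value, and on the RPM scale the interval lies wholly below 1. The interval covers counting error at most, and it treats each read as separate. Amplified reads lacking molecular identifiers need not stem from separate molecules, so it may be too narrow even for that. It also leaves out any variation between cultures or immunoprecipitations. When both libraries were instead given the same median over all peaks, the ratio was 0.966 (0.574 to 1.58), and with the same sum it was 0.809 (0.481 to 1.32). Both of these intervals hold 1, so whether the peak was lower in K36M at all, and not only by how much, depends on the scaling to all library reads. Setting the median or the sum of the listed peaks equal removes any change that these peaks share. A peak near the middle of the table, as this one is, then comes out near 1 largely by construction. Every listed peak also held at least 9.5 WT reads per 200 bp, whereas K36M density ranged down to 1.0. If peaks were listed for their WT signal, WT counts would lean high and ratios low. None of the intervals given here allows for that, and it was not tested.

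**Figure D1:**
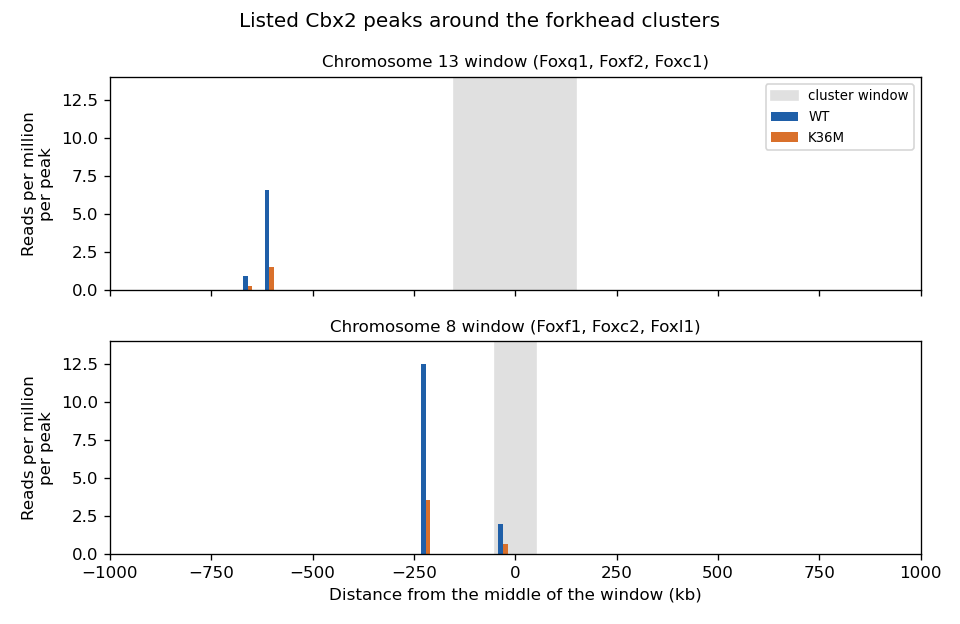
Cbx2 peaks within 1000 kb on either side of the middle of each forkhead window, drawn by distance in kb, with bar height in RPM for WT (blue) and K36M (orange) and the window shaded; bars are wider than the peaks, and there is 1 library per group and hence no error bar. The chromosome 13 window holds no listed peak, and the chromosome 8 window holds 1, at 1.98 RPM in WT and 0.662 RPM in K36M.

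On the log2 scale with a pseudocount of 0.1 RPM, the peak changed by -1.45 from WT to K36M. The median of the other 2216 peaks was also -1.45, with quartiles of -1.81 and -1.004, and 1106 of them lay below the forkhead peak and 1108 above. The peak was past the limit of at least 2-fold lower in K36M, as were 75.3% of all 2217 peaks, so its call is that of most of the table. Listed peaks together held 1.63% of the WT library's reads and 0.674% of the K36M library's reads. This share and those given below for other sets of peaks therefore also depend on the scaling to all library reads. At least 2-fold higher values were rarer, at 0.271% of peaks, and the forkhead peak was not among them. The forkhead peak thus stood in the middle of the listed Cbx2 peaks. Its depth limits how closely it can be placed, since the interval of its ratio, 0.199 to 0.547, spans values to either side of the median.

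**Figure D2:**
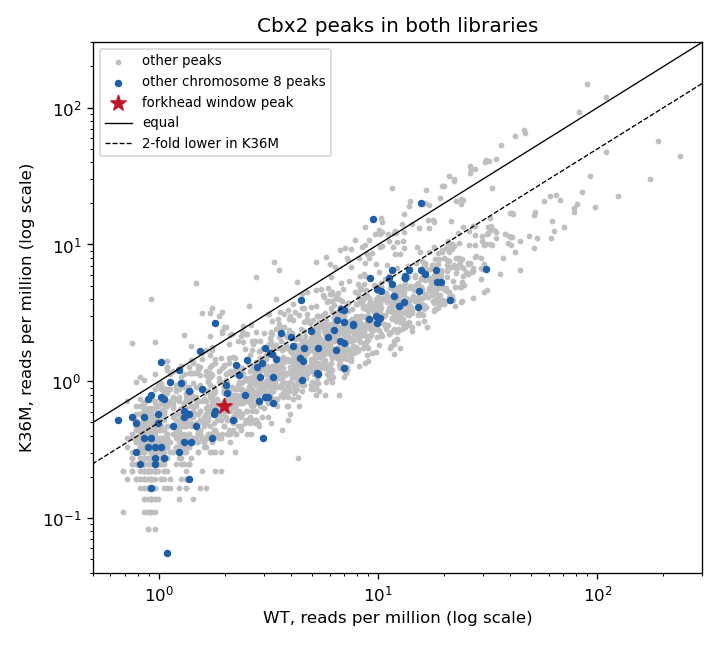
RPM in K36M against WT for each peak of the table, both axes logarithmic, with the forkhead window peak as a star, other chromosome 8 peaks in blue and all remaining peaks in grey; the solid line marks equal values and the dashed line a 2-fold lower value in K36M. The star lies below the dashed line, at 1.98 RPM in WT and 0.662 RPM in K36M, inside the cloud of other peaks.

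In length, total signal and density the forkhead peak lay within the quartiles of the other peaks, on the lower side for length and total. Its 800 bp compare with a median of 1600 bp over the other peaks and quartiles of 600 and 3200 bp. Its 58 WT reads compare with a median of 112 and quartiles of 44 and 253. Per 200 bp it held 14.5 reads in WT, against a median of 13.8 and quartiles of 12.6 and 15.8. In K36M it held 6.0 reads per 200 bp, the same as the median of the other peaks.

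Set beside the 122 other peaks of exactly 800 bp, the forkhead peak lay within the quartiles of the log2 ratio. Those peaks held a median of 53 reads in WT and 24.5 in K36M. Their median log2 ratio was -1.37, with quartiles of -1.69 and -0.90 and a range from -2.65 to 1.03. The forkhead peak, at -1.45, had a higher ratio than 50 of them and a lower ratio than 71, and 1 had the same. At least 2-fold lower values were found at 87 of the 122 (71.3%).

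**Figure D3:**
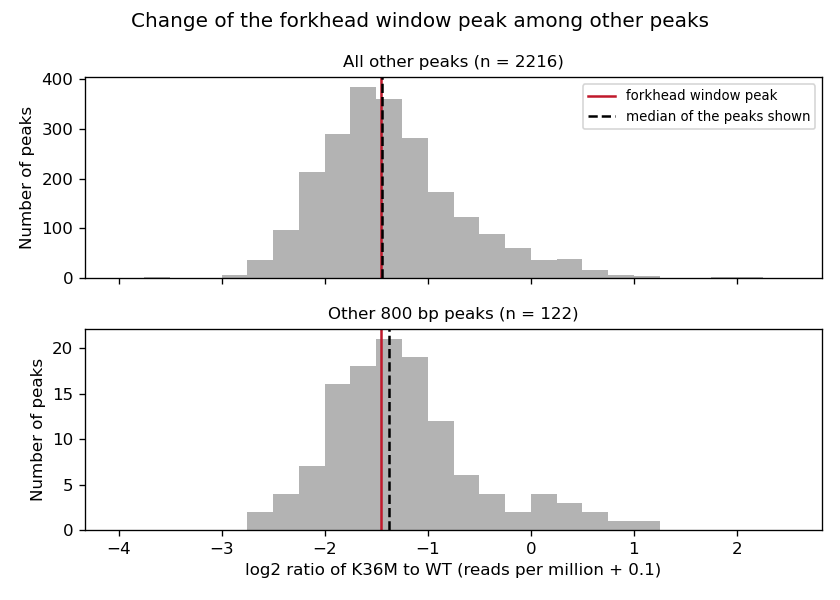
Number of peaks by log2 ratio of K36M to WT (RPM plus 0.1) for all 2216 other peaks and for the 122 other peaks of 800 bp, with the forkhead window peak as a red line and the median of each set as a dashed line. The red line, at -1.45, coincides with the median of all other peaks and lies close to the median of the 800 bp peaks, -1.37.

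The 113 other peaks of chromosome 8 had a median log2 ratio of -1.25, with quartiles of -1.70 and -0.96, and 80 of them (70.8%) were at least 2-fold lower in K36M. Of these peaks, 46 had a lower ratio than the forkhead peak and 67 a higher one. The nearest listed neighbour lay 188.4 kb before the forkhead peak, from 123407000 to 123410799, outside the window. It held 366 WT reads and 128 K36M reads, for a ratio of 0.283 (95% exact interval 0.229 to 0.346). The ratio at the forkhead peak was 1.18 times that of this neighbour, with a conditional exact 95% interval of 0.673 to 2.03, so a difference between them was not detectable at this depth. On the other side the next listed peak was 2030 kb away, a 400 bp peak starting at 125630000. It held 30 WT reads and 28 K36M reads, for a ratio of 0.754 (0.434 to 1.31). The ratio at the forkhead peak was 0.443 times that of this peak, with an interval of 0.207 to 0.948. That interval lies below 1, but it treats every read as separate and is 1 of 2 such intervals. How far amplified reads, or a listing of peaks by WT signal, would shift it was not tested. Neither comparison depends on how the libraries are scaled.

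Listed Cbx2 peaks covered 0.80% of the chromosome 8 window, 800 bases of 100 kb. The chromosome 13 window had no covered base over 300 kb. It sat within a stretch of 11.6 Mb without a listed peak, from 31174600 to 42747999, which ranked 19 by length among the 2197 gaps between neighbouring peaks and 2 among the 62 gaps of chromosome 13. The median gap was 194 kb. Each gap counts once in this ranking, whereas a fixed position is more likely to fall in a long gap than in a short one. The rank thus does not give how often a position falls in so long a stretch. The nearest peak before that window, 455.4 kb away, spanned 31172800 to 31174599 and held 192 WT reads and 54 K36M reads, for a ratio of 0.227 (0.165 to 0.309). The next one after it began 10.8 Mb further on.

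A stretch of either window's length without a peak was the usual case in this table. Cut into tiles of 300 kb from the first base of each chromosome to its last listed peak, the 20 chromosomes gave 8559 tiles, of which 85.1% held no peak. Of 25660 tiles of 100 kb, 6.12% held at least 1 peak. By length alone, the empty chromosome 13 window is thus like most stretches, and the chromosome 8 window, with 1 peak, is like a small share of stretches. The tiles were placed without regard to genes or CpG-rich promoters. Whether windows around genes of this kind are usually empty was not tested. With 0 peaks against 1, the clusters could not be compared by their K36M/WT ratio, and the contrast between them rests on the presence of 1 peak of 58 WT reads.

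The absence of a listed peak is not a measurement of 0 reads. The shortest listed peaks were 400 bp long, the fewest WT reads in a listed peak were 19, and no listed peak had fewer than 9.5 WT reads per 200 bp. Reads outside listed peaks are not in the table, so the Cbx2 level over Foxq1, Foxf2 and Foxc1 in either library is unknown here. A region with signal in K36M alone could not be assessed either, because every listed peak reached that density in WT, whereas K36M density ranged down to 1.0.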

How the data were processed

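One table of 2217 Cbx2 peaks was used, with mm9 positions and 1 value each for WT and K36M. Reads were aligned with Bowtie 1.0.0 to mm9, per the submitters' processing notes; how peaks were called, from which libraries, and whether the input entered, is not given in the sources used here. The authors' deposited columns are headed RPKM, but their values are reads per 1000000 library reads (RPM): 100% of them were whole multiples of 1 step per column, within 1e-06 of a read, whatever the peak length. Library sizes and reads per peak were recovered from that step. The WT column was read as the ChIP library because the table is named for Cbx2. Protocol and sample descriptions name different suppliers for the antibody.

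Log2 ratios used a pseudocount of 0.1 RPM, which understates changes of weak peaks. Ratios printed for single peaks used none. Calculations ran in Python 3.11.15 with scipy 1.17.1 and were checked on simulated reads. The windows, the 2-fold limit and the alternatives (pseudocount, scaling, fold limit, wider windows, a filter on weak peaks) were chosen with earlier results of these data known. Every peak overlapping a window was named. The 800 bp peaks, gaps, tiles and promoter CpG counts were added after the peak's values were seen.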

Additional observations from a re-analysis of the deposited data

How the results depend on the processing

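No paired analysis was possible because only 1 ChIP library exists for WT and for K36M here, and no replicate could be left out. The chromosome 13 ratio and the ratio between clusters could not be computed, since the table lists no peak there, and leaving out the strongest peak leaves none. With 1 member, the pooled, chromosome 8 and single-peak values are the same. The K36M/WT ratio of 0.334 became 0.966 after scaling both libraries to a common median and 0.809 after scaling to a common sum, which multiply K36M by 2.89 and 2.42. The log2 ratio moved from -1.45 to -0.048 and -0.29 under these scalings, to -0.84 with a pseudocount of 1 and to -1.57 with one of 0.01. The peak was no longer at least 2-fold lower, a count of 0, with either scaling or with a pseudocount of 1, and it was not past a 3-fold limit, also 0. A limit of 1.5-fold, the filter and windows wider by 50000 bases changed no call. Under both scalings the counting interval of the ratio held 1, at 0.574 to 1.58 and 0.481 to 1.32, so no direction is shown there. Both scalings remove any change shared by the listed peaks. For a peak in the middle of the table, a ratio near 1 is thus largely built in. Depth also limits the ratio, which rests on 58 and 24 reads.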
